A study of Homo sapiens with 8 samples.

Results

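The enzymes that write, copy and erase DNA methylation and 3 core subunits of Polycomb repressive complex 2 were examined in UWB1.289, a human cell line from an ovarian carcinoma. The 10 genes, taken by symbol from the 25369 named genes of the count table, were DNMT1, DNMT3A, DNMT3B, UHRF1, TET1, TET2, TET3, EZH2, EED and SUZ12, and all 10 were among the 17714 genes that passed the filter on low counts. Poly(A) RNA was sequenced in 8 libraries that form 4 groups of 2. BRCA1-null cells are the parental line, which carries a truncating BRCA1 mutation, and BRCA1+ cells are the same line after stable transfer of wild-type BRCA1, so each genotype is represented by 1 line. Cells of each genotype received DMSO, the vehicle (control), or 0.5 uM entinostat, an inhibitor of class I histone deacetylases, for 24 h. The labels do not say whether the 2 libraries of a group came from separate cultures, so p-values measure the spread between these libraries, which may be technical.

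In mammalian cells DNMT3A and DNMT3B place methyl groups on unmethylated CpG sites, and DNMT1, brought to newly replicated DNA by UHRF1, copies the existing pattern onto the daughter strand. The TET enzymes oxidise the methyl group, which opens a route to its removal. EZH2 is the catalytic subunit that methylates lysine 27 of histone H3, EED reads that mark and stimulates the enzyme, and SUZ12 holds the complex together. The genes were followed to ask how their mRNA levels differed with BRCA1 status and with deacetylase inhibition. Protein, enzyme activity and methylation itself were not measured in these libraries.

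Libraries held 31900158 to 53549893 counts, and replicates differed by more than sampling noise (chi-square per gene of 8.18 to 14.1). BRCA1 itself was 4.4-fold lower in BRCA1-null than in BRCA1+ control cells (log2 fold change -2.14 ± 0.0861 SE, adjusted p = 5.46e-07), which matches the labels. The summed level of 10 epithelial and ovarian carcinoma markers was 14100 to 18500 CPM (counts scaled to library size). Of these, WT1 had 13 to 20 counts in BRCA1+ libraries, and BRCA1-null libraries had 4 and 1 with DMSO and 6 and 3 with entinostat, so it lay at or near the floor of 3 counts in BRCA1-null cells. Leukocyte markers summed to 16.6 to 39.3 CPM. The sum of 10 fibroblast and endothelial markers in BRCA1+ libraries was 14.1 and 20.4 CPM with DMSO and 42.9 and 52.6 with entinostat, and in BRCA1-null libraries 46.0 and 63.5 with DMSO and 97.6 and 110.0 with entinostat. Of this list, the fibroblast gene DCN had 0 counts in all 8. Of the 6 tested, 4 were called higher in BRCA1-null cells in both media, beside 42.2% (DMSO) and 39.4% (entinostat) of all genes. They were the endothelial genes CDH5, KDR and VWF and the collagen gene COL1A1 (log2 fold changes of 2.74, 2.06, 1.20 and 1.09 in DMSO). PECAM1 and CLDN5 were not called, and in DMSO the endothelial gene PECAM1 was lower (-0.95, adjusted p = 0.0832). With entinostat CDH5 and COL1A1 were called higher in BRCA1+ cells (by 2.09 and 1.78), beside 14.1% of all genes. They were also called higher in BRCA1-null cells (by 0.99 and 1.14), beside 10.8%. There the CDH5 call was lost in DESeq2 (adjusted p = 0.133), with edgeR's legacy estimate (0.0561) and with only the 2 groups compared (0.0871). These sums moved with genotype and treatment, and their part in the results was not tested.

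Promoter sequences were set beside the expression data because several of the 10 genes are known to be expressed with the cell cycle. RefSeq lists 22 windows for the 10 genes (GRCh38.p14, 250 bases before to 50 after a start site), and each had 1 exact match on hg19, the build of the count table. Both strands were searched for an E2F-type motif of 8 letters (TTTCCCGC, TTTCGCGC, TTTGGCGC or TTTGCCGC). It was present in 5 windows of 4 genes, DNMT1, UHRF1, EZH2 and SUZ12, and in 1164 of 35116 windows of all promoters (3.31%). Counted per gene, 3.99% of all genes with a window held it. The windows of the 10 genes had a median of 73.5% G and C, against 58.7% for all promoters, and the shares were not adjusted for this. Of the S phase and mitosis genes described further on, 10 of 21 with a window held it. No window of DNMT3A, DNMT3B, EED or the TET genes held these letters, but the windows of DNMT3B, UHRF1 and TET3 do not lie at the starts given in the count table, which were not searched. The windows of DNMT1 (chr19:10305580-10305879, minus strand), UHRF1 (chr19:4909263-4909562, plus strand, the first of 3), EZH2 (chr7:148581334-148581633, minus strand, the first of 2) and SUZ12 (chr17:30263776-30264075, plus strand) follow in the direction of transcription, with the motif or its reverse complement in capitals. The matches lie from base -2 to base 6 relative to the start site in DNMT1, from -14 to -7 in UHRF1, from 2 to 9 in EZH2 and from -189 to -182 in SUZ12. A match is a run of letters and not a measured binding site.
DNMT1: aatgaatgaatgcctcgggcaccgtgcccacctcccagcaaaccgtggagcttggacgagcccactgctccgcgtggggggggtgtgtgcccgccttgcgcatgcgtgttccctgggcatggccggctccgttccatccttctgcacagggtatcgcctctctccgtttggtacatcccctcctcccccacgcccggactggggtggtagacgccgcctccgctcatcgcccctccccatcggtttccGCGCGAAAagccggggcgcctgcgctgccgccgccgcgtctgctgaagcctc
UHRF1: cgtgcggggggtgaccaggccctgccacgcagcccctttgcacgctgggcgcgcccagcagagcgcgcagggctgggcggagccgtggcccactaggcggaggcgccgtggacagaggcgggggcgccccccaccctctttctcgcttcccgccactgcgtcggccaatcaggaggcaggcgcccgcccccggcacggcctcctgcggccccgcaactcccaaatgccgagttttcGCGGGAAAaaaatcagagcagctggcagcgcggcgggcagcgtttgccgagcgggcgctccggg
EZH2: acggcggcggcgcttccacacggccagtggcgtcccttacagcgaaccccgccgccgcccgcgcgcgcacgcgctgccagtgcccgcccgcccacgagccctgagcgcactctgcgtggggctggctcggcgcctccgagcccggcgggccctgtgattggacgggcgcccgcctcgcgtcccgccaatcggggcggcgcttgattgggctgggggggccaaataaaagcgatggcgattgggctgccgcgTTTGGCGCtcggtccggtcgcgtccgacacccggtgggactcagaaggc
SUZ12: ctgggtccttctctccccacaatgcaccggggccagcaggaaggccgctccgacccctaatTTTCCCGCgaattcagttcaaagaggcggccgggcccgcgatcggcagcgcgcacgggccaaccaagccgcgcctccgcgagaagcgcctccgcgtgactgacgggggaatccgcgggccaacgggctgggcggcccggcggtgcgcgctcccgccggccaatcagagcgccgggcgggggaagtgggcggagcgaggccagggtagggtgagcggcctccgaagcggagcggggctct

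Levels between genes were compared per length, as counts scaled to library size and to the length of the gene model (RPKM). DNMT1 was the highest at a mean of 77.2 RPKM over the 8 libraries, and its range of 72.5 to 84.0 did not overlap that of any other gene of the set. The 3 PRC2 genes of the set followed, with EZH2 at 27.3, EED at 23.2 and SUZ12 at 13.3 RPKM. EZH2 and EED overlapped in range, although EZH2 was the higher in 7 of 8 libraries. EED and SUZ12 did not overlap. UHRF1 (11.6 RPKM) and DNMT3B (11.5 RPKM) had nearly equal means, but UHRF1 spanned 9.86 to 12.9 and DNMT3B 5.25 to 18.2 RPKM, the widest range of the 10. DNMT3A averaged 6.34 RPKM and TET3 5.04, with overlapping ranges. TET2 (1.23 RPKM) and TET1 (0.401 RPKM) were the lowest, and neither overlapped its neighbours. TET3 contributed 73.2% to 78.8% of the summed RPKM of the 3 TET genes in every library. The maintenance enzyme thus exceeded both de novo enzymes in each library.

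**Figure D1:**
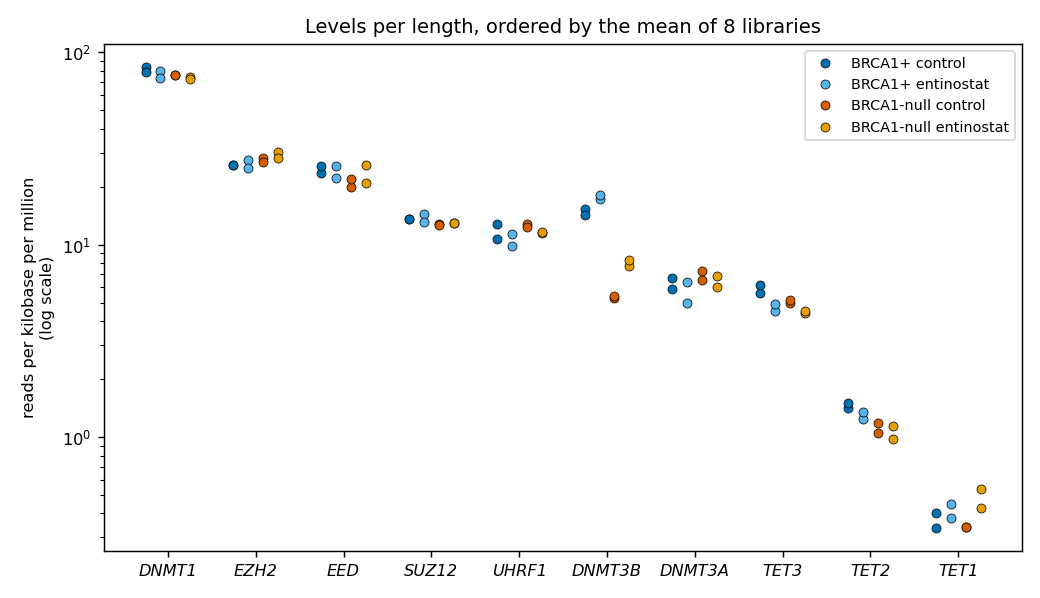
RPKM (log scale) of the 10 genes in the 8 libraries, with 1 point per library and a colour per group, ordered by the mean. DNMT3B, from 5.25 to 18.2 RPKM, lies above UHRF1 in all 4 BRCA1+ libraries and below it in all 4 BRCA1-null libraries, and falls below DNMT3A in the BRCA1-null controls alone.

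Between the lines in DMSO, 3 of the 10 genes were called at an adjusted p under 0.05, all lower in BRCA1-null cells, beside 42.2% of all 17714 genes called in that comparison. They were DNMT3B, TET2 and TET3. The median log2 fold change of the 10 was -0.10, against 0.01 over all genes. In entinostat, DNMT3B and TET2 were called, both lower in BRCA1-null cells, beside 39.4% of all genes. Neither share of the 10 exceeded that of all genes. The comparisons in DMSO and in entinostat use different libraries.

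DNMT3B differed most. In BRCA1+ libraries it had 71.0 and 66.4 CPM with DMSO and 80.1 and 84.1 with entinostat, and in BRCA1-null libraries 24.3 and 24.9 CPM with DMSO and 36.0 and 38.5 with entinostat. All 4 BRCA1-null libraries lay below all 4 BRCA1+ libraries, and within each line both entinostat libraries lay above both controls. In DMSO it was 2.79-fold lower in BRCA1-null cells (log2 fold change -1.48 ± 0.0715 SE, adjusted p = 1.51e-06), a decrease exceeded by 2.43% of all genes. In entinostat it was 2.21-fold lower (-1.14 ± 0.0697, adjusted p = 5.7e-06). Both calls held under all 16 alternative settings, including the omission of each library.

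DNMT3A, the other de novo enzyme, had 37.9 and 33.2 CPM in BRCA1+ control and 41.3 and 37.3 in BRCA1-null control libraries. The groups overlapped, and the log2 fold change was 0.14 (95% confidence interval -0.138 to 0.428, adjusted p = 0.387). The ratio of DNMT3B to DNMT3A, per length, was 2.29 and 2.44 in BRCA1+ control and 0.719 and 0.817 in BRCA1-null control libraries. With entinostat it was 2.7 and 3.66 in BRCA1+ and 1.13 and 1.38 in BRCA1-null libraries. DNMT3B was therefore the higher of the pair in every library apart from the BRCA1-null controls.

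The maintenance pair was not called in any comparison by edgeR or DESeq2 in the fits of all 8 libraries, and its lowest unadjusted p in edgeR was 0.0747, for UHRF1 with entinostat averaged over both lines. DNMT1 had 454 and 429.8 CPM in BRCA1+ control and 415 and 411 in BRCA1-null control libraries, which did not overlap, but the log2 fold change was -0.10 (interval -0.225 to 0.0312, adjusted p = 0.201). UHRF1 had 66.9 and 55.4 CPM in BRCA1+ control against 66.8 and 64.2 in BRCA1-null control libraries (0.10, interval -0.118 to 0.32, adjusted p = 0.437). For DNMT1 the interval reaches down to a decrease of 0.225 on the log2 scale.

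Among the TET genes, TET2 was lower in BRCA1-null cells. BRCA1+ libraries had 21.6 and 22.9 CPM with DMSO and 19.1 and 20.7 with entinostat, and BRCA1-null libraries 18.1 and 16.0 CPM with DMSO and 14.9 and 17.4 with entinostat, so that the 2 lines did not overlap. In DMSO the log2 fold change was -0.39 ± 0.105 (adjusted p = 0.0157). Under entinostat it was -0.31 ± 0.109 (adjusted p = 0.0485). The call in DMSO was lost without BRCA1+ control replicate 2 (adjusted p = 0.0886) or BRCA1-null control replicate 2 (adjusted p = 0.11), and the call in entinostat held in 7 of 16 alternatives (adjusted p from 0.0281 to 0.27). It was lost when any one of the BRCA1+ libraries or BRCA1-null entinostat replicate 1 was left out.

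TET3 had 64.1 and 70.6 CPM in BRCA1+ control against 56.6 and 58.8 in BRCA1-null control libraries. The groups did not overlap, and the log2 fold change was -0.22 ± 0.072 (adjusted p = 0.0329). The call held in 10 of 16 alternatives, with an adjusted p of 0.183 without BRCA1-null control replicate 1, 0.204 without BRCA1+ control replicate 2 and 0.0756 without BRCA1-null control replicate 2. In entinostat the difference was -0.09 (interval -0.256 to 0.0782, adjusted p = 0.384). TET1 was not called in either medium, at 3.85 and 3.23 CPM in BRCA1+ control and 3.28 in both BRCA1-null control libraries (-0.10, interval -0.527 to 0.317, adjusted p = 0.686), and its interval is the widest of the set.

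None of EZH2, EED and SUZ12 was called between the lines by edgeR or DESeq2 in the fits of all 8 libraries without a replicate block. Their only unadjusted p under 0.05 in edgeR was that of EZH2 in entinostat, 0.0463. RBBP4 and RBBP7, also subunits of PRC2, are described further on. With the replicate number as a block in edgeR, EED was called in DMSO (adjusted p = 0.00971) and EZH2 in entinostat (adjusted p = 0.0323). EZH2 had 78.7 and 79.1 CPM in BRCA1+ control and 85.6 and 81.4 in BRCA1-null control libraries. Every BRCA1-null library exceeded the BRCA1+ libraries of the same medium, by a log2 fold change of 0.08 in DMSO (interval -0.0731 to 0.236, adjusted p = 0.372) and 0.16 in entinostat (interval 0.00322 to 0.314, adjusted p = 0.099). EED had 57.3 and 61.9 CPM in BRCA1+ control against 48.4 and 52.9 in BRCA1-null control libraries, with no overlap, and the log2 fold change was -0.24 (interval -0.482 to 0.0109, adjusted p = 0.113). SUZ12 was the steadiest gene, from 57.0 to 64.8 CPM. All 4 BRCA1-null libraries of SUZ12 lay below all 4 BRCA1+ libraries, yet the log2 fold change was -0.10 (interval -0.242 to 0.0489, adjusted p = 0.26). The pseudogene copy SUZ12P1 is counted separately in the table, at 2.81 to 4.04 CPM, and reads shared between the copies could be assigned to either. Relative to EZH1, its paralog, EZH2 was 3.88 to 4.93 times as high per length across the 8 libraries.

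**Figure D2:**
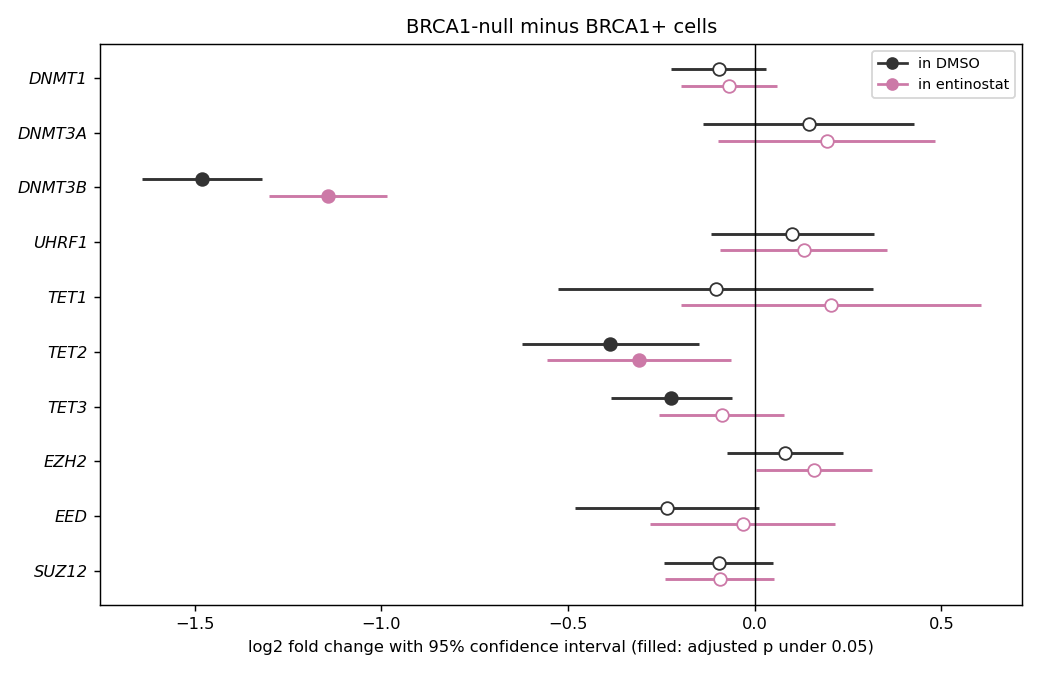
Log2 fold change (x axis) of each gene in BRCA1-null against BRCA1+ cells, in DMSO (black) and in entinostat (pink). Points are estimates from 2 libraries per group, lines are 95% confidence intervals, and filled points passed an adjusted p of 0.05. DNMT3B, at -1.48 and -1.14, lies apart from the other 9 genes.

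Since the lines may differ over stretches of chromosomes, each gene was set beside the 25 tested genes on either side. The counts of called neighbours below stand beside 42.2% of all genes called in DMSO. The windows differ in span, such as 71205575 to 74781091 around TET3 and 77811988 to 93466466 around EED. Around DNMT3B on chromosome 20 (hg19 gene span 31350191 to 31397162, plus strand) the 50 neighbours had a median log2 fold change of -0.12 in DMSO, with 3 called higher and 9 lower. DNMT3B thus lay far below its surroundings. The neighbours of TET2 on chromosome 4 had a median of 0.02, against -0.39 for TET2. Around TET3 on chromosome 2 the median was -0.13, with 3 higher and 13 lower. Around EED on chromosome 11 it was -0.18, with 3 higher and 14 lower. The estimates of both genes had the sign of these medians, though most of the neighbours were not called. EZH2 on chromosome 7 lay among neighbours with a median of 0.18, of which 15 were higher and 2 lower. Copy number was not measured.

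**Figure D3:**
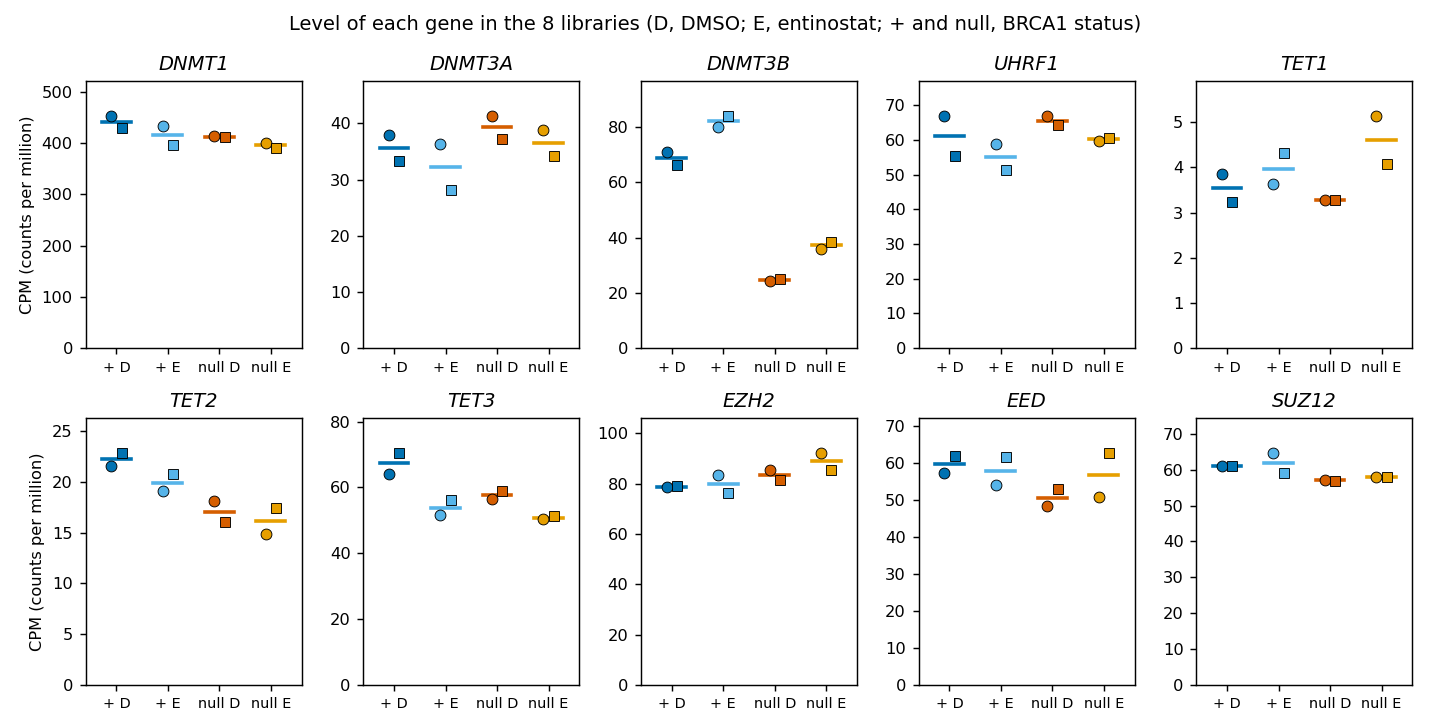
CPM (y axis, from 0) of each of the 10 genes in the 8 libraries, by group. Circles are replicate 1, squares replicate 2, and bars the mean of 2 libraries. DNMT3B separates the lines and rises with entinostat in both, and TET3 is lower with entinostat in both. SUZ12, DNMT1 and EZH2 have the narrowest bands (highest over lowest CPM of 1.14, 1.16 and 1.21), and EED has 1.3.

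With entinostat, 2 of the 10 genes were called in BRCA1+ cells, beside 14.1% of all genes. DNMT3B rose and TET3 fell. In BRCA1-null cells DNMT3B alone was called, beside 10.8% of all genes. Averaged over both lines, the same pair of genes was called, DNMT3B higher and TET3 lower, beside 26.1% of all genes. These 3 comparisons share libraries. The median log2 fold change of the 10 genes with entinostat, averaged over the lines, was -0.03, and that of all genes 0.00381.

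DNMT3B was 1.2-fold higher with entinostat in BRCA1+ cells (log2 fold change 0.26 ± 0.0672, adjusted p = 0.0344). It was 1.51-fold higher with entinostat in BRCA1-null cells (0.60 ± 0.0732, adjusted p = 0.00265). In BRCA1-null cells the call held under all 16 alternatives. In BRCA1+ cells it was lost when any one of its 4 libraries was left out, with adjusted p = 0.0625 and 0.176 without control replicates 1 and 2, and 0.0943 and 0.208 without entinostat replicates 1 and 2. Averaged over both lines the change was 0.43 ± 0.0497 (adjusted p = 0.000538), and this call held under all 15 alternatives. The BRCA1-null entinostat libraries, at 36.0 and 38.5 CPM, remained below the BRCA1+ controls, at 71.0 and 66.4.

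TET3 moved the other way. It had 51.7 and 56.1 CPM in BRCA1+ entinostat libraries, both below the 64.1 and 70.6 of the controls, and the log2 fold change was -0.32 ± 0.0732 (adjusted p = 0.0224). That call was lost without BRCA1+ control replicate 2 (adjusted p = 0.13), BRCA1+ entinostat replicate 1 (0.147) or BRCA1+ entinostat replicate 2 (0.0652). In BRCA1-null cells it had 50.4 and 51.2 CPM with entinostat against 56.6 and 58.8 in control, again without overlap, and the log2 fold change of -0.18 ± 0.0728 did not pass (adjusted p = 0.139). Averaged over both lines TET3 fell by 0.25 ± 0.0516 on the log2 scale (adjusted p = 0.00761), and this call held under all 15 alternatives.

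TET1 gave the second largest estimate in BRCA1-null cells without passing the test. It had 5.14 and 4.07 CPM with entinostat, both above the 3.28 of each control library, for a log2 fold change of 0.50 ± 0.176 (adjusted p = 0.105). In BRCA1+ cells the values were 3.63 and 4.31 with entinostat and 3.85 and 3.23 in control, which overlapped (0.19, interval -0.234 to 0.616, adjusted p = 0.564). TET2 was not called with entinostat, at -0.16 (interval -0.394 to 0.0824) in BRCA1+ and -0.08 (interval -0.323 to 0.164) in BRCA1-null cells.

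The remaining 6 genes were not called with entinostat in either line or in the average. Averaged over both lines, DNMT1 changed by -0.07 on the log2 scale (interval -0.164 to 0.0169), DNMT3A by -0.13 (interval -0.331 to 0.0754) and UHRF1 by -0.14 (interval -0.296 to 0.017). UHRF1 passed in 1 of 15 alternatives, without BRCA1+ control replicate 2 (adjusted p = 0.0498). EZH2 changed by 0.05 (interval -0.0551 to 0.164), EED by 0.06 (interval -0.115 to 0.235) and SUZ12 by 0.02 (interval -0.0826 to 0.124). The 95% intervals of the 3 PRC2 subunits, each taken alone, thus reach no further than 0.235 on the log2 scale in either direction. They rest on the spread between these libraries, which may be technical.

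**Figure D4:**
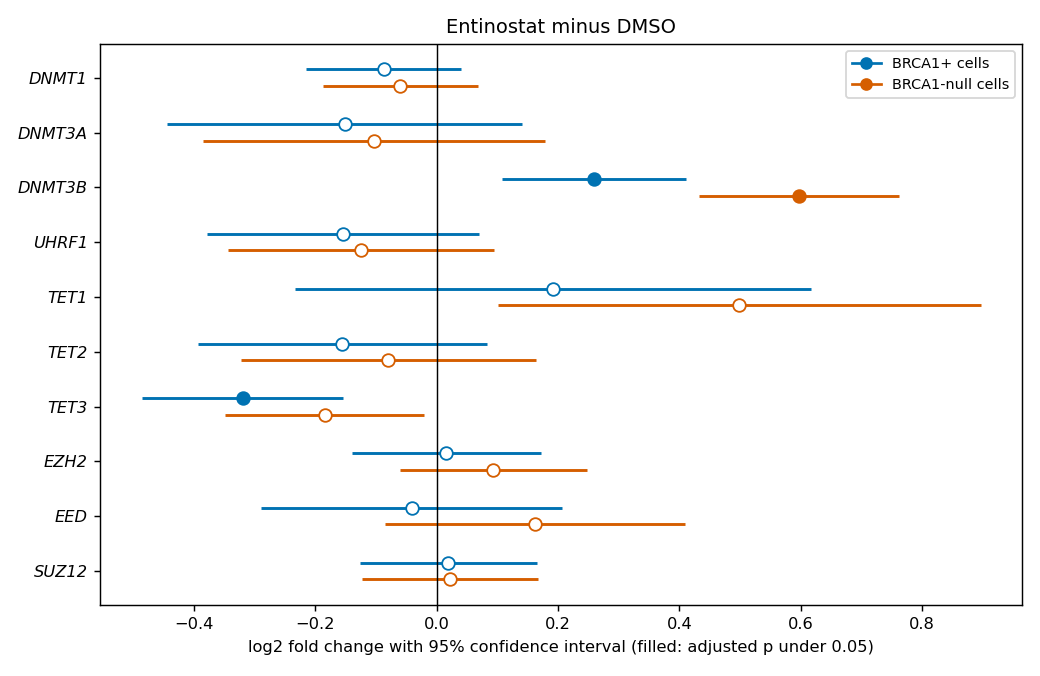
Log2 fold change (x axis) of each gene with entinostat against DMSO in BRCA1+ (blue) and BRCA1-null (orange) cells. Points are estimates from 2 libraries per group, lines are 95% confidence intervals, and filled points passed an adjusted p of 0.05. DNMT3B lies at 0.26 and 0.60 and TET3 at -0.32 and -0.18, and the other intervals cross 0 apart from that of TET1 in BRCA1-null cells.

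No member showed an entinostat effect that passed the test for a difference between the lines. In edgeR's quasi-likelihood test 0 of all 17714 genes (0%) were called in that comparison, 827 had an unadjusted p under 0.05, DESeq2's Wald test called 11 and the fit with the replicate number as a block called 1. DNMT3B came closest, with an effect larger in BRCA1-null cells by 0.34 ± 0.0993 on the log2 scale (interval 0.115 to 0.563, unadjusted p = 0.00756, adjusted p = 0.967, adjusted p at least 0.454 in all alternatives). The difference was 0.31 for TET1 (interval -0.275 to 0.89) and 0.13 for TET3 (interval -0.098 to 0.368). It is not shown by these data that any of the 10 genes responds differently in the 2 lines.

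Partners of the DNA methylation enzymes, proteins that read the mark, and relatives of either that need not do so were followed as a list of 15. Of these, 14 were tested. In DMSO, 1 was higher in BRCA1-null cells and 2 were lower, beside 42.2% of all genes called. TDG, a glycosylase that removes oxidised methylcytosine, was higher by 0.54 ± 0.143 on the log2 scale (adjusted p = 0.0146), a call lost without BRCA1+ control replicate 1 (adjusted p = 0.092) or BRCA1-null control replicate 2 (adjusted p = 0.102). CDCA7, a partner of the remodeller HELLS, had 40.4 and 33.8 CPM in BRCA1+ and 25.03 and 24.6 in BRCA1-null control libraries (-0.58 ± 0.115, adjusted p = 0.00344). UHRF2, the paralog of UHRF1, was lower by a similar amount (-0.57 ± 0.128, adjusted p = 0.00665), with an adjusted p of 0.0537 without BRCA1-null control replicate 2. With that library left out, 1 gene of the list was called.

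With entinostat, MBD3, a subunit of the NuRD deacetylase complex, fell in both lines. It had 73.8 and 74.4 CPM in BRCA1+ control and 44.0 and 49.3 in BRCA1+ entinostat libraries (-0.66 ± 0.0848, adjusted p = 0.00212). In BRCA1-null cells it had 78.2 and 86.9 CPM in control and 56.5 and 62.5 with entinostat (-0.47 ± 0.0823, adjusted p = 0.00988), a call lost without BRCA1-null entinostat replicate 1 (adjusted p = 0.0698) or BRCA1-null control replicate 2 (adjusted p = 0.0688). Averaged over both lines 1 of the 14 rose, ZBTB4, and 2 fell, MBD3 and MBD1, beside 26.1% of all genes called. DNMT3L, the catalytically inactive cofactor of the de novo enzymes, was at 0 to 4 counts in all libraries and was not tested.

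Of a list of 12 further PRC2 subunits and H3K27 demethylases, 11 were tested. In BRCA1-null control cells 3 were higher (C17orf96, JARID2 and KDM6A) and 4 lower (MTF2, PHF19, RBBP4 and RBBP7), beside 42.2% of all genes called. Without BRCA1-null control replicate 2, 4 of the list were called. KDM6A, which removes methyl groups from lysine 27 of histone H3, had 23.9 and 26.6 CPM in BRCA1+ and 33.5 and 35.3 in BRCA1-null control libraries (0.45 ± 0.092, adjusted p = 0.00419). MTF2, which guides PRC2 to CpG islands, had 72.6 and 74.8 against 51.6 and 52.6 CPM (-0.50 ± 0.0639, adjusted p = 0.000289).

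PHF19, a relative of MTF2 that also joins PRC2, fell with entinostat in both lines. BRCA1+ libraries had 77.2 and 86.3 CPM with DMSO against 54.0 and 55.6 with entinostat, and BRCA1-null libraries 71.2 and 63.4 CPM with DMSO against 45.2 and 47.9 with entinostat. The log2 fold change was -0.58 ± 0.0819 in BRCA1+ cells (adjusted p = 0.00328). The change in BRCA1-null cells was -0.53 ± 0.0821 (adjusted p = 0.00639, and 0.0501 without BRCA1-null entinostat replicate 1). PHF19 was the only gene of the list called in either line, beside 14.1% of all genes in BRCA1+ and 10.8% in BRCA1-null cells. When the lines were averaged, 2 of the 11 were called, PHF19 and MTF2, beside 26.1% of all genes. In the average over both lines MTF2 rose by 0.16 ± 0.0452 (adjusted p = 0.0303), a call lost without any one library other than BRCA1-null entinostat replicate 1 (adjusted p from 0.0557 to 0.0956).

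Of the subunits of PRC1, the other main Polycomb complex, 17 of 18 were tested. In DMSO CBX2 and PHC1 were higher and CBX6 and YAF2 lower in BRCA1-null cells, beside 42.2% of all genes called. The call of CBX2 was lost without BRCA1+ control replicate 2 (adjusted p = 0.174) or BRCA1-null control replicate 2 (adjusted p = 0.161), and that of CBX6 without BRCA1+ control replicate 1 or either BRCA1-null control library (adjusted p = 0.0517 to 0.0788). With the replicate number as a block, 9 subunits were called. The 42.2% does not apply to that fit, so the 9 cannot be read as more or fewer than among all genes. With entinostat CBX6, one of the subunits with a chromodomain, rose in both lines, from 50.2 and 46.2 to 75.7 and 68.6 CPM in BRCA1+ cells (0.58 ± 0.0789, adjusted p = 0.00273) and from 38.7 and 39.4 to 61.0 and 55.8 CPM in BRCA1-null cells (0.58 ± 0.0793, adjusted p = 0.00386). In the average over both lines 4 subunits rose and 3 fell, with a list median of 0.04, beside 26.1% of all genes called.

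Of 24 genes of S phase and mitosis, 12 were lower and 1 (AURKB) higher in BRCA1-null control cells, beside 42.2% of all genes called, with a median log2 fold change of -0.28 against 0.01 over all genes. With entinostat, averaged over both lines, 12 were lower and none was higher, beside 26.1% of all genes called, with a median of -0.17. In BRCA1+ cells 8 were lower and E2F2 was higher, beside 14.1% of all genes called. In BRCA1-null cells MCM7 and RRM2 were lower, beside 10.8%. The number called in BRCA1+ cells, 9, was 5 and 3 without control replicates 1 and 2, and 2 and 1 without entinostat replicates 1 and 2. The number called in BRCA1-null cells, 2, was 1 without any one of the 4 BRCA1-null libraries, where MCM7 had an adjusted p of 0.0574 to 0.109, and 8 with the replicate number as a block. None of the 4 genes with the motif in a promoter window, DNMT1, UHRF1, EZH2 and SUZ12, was called in any of these comparisons in the fit of all 8 libraries without a block. Differences in the share of cycling cells and differences per cell cannot be told apart in bulk RNA.

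**Figure D5:**
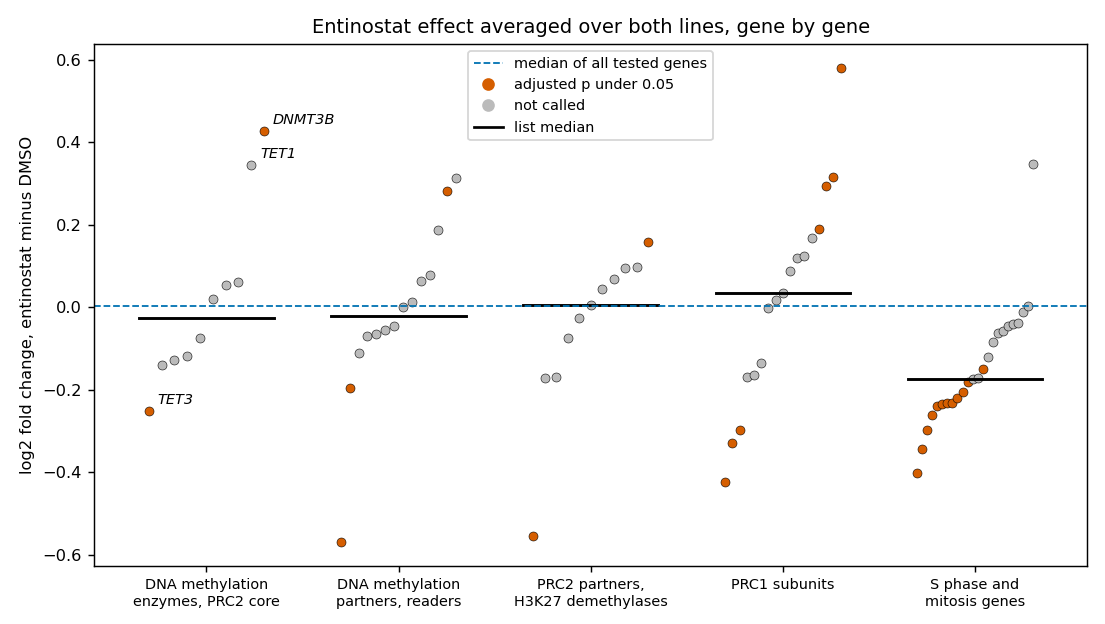
Log2 fold change (y axis) with entinostat, averaged over both lines, for each tested gene of 5 lists, sorted within a list. Orange points passed an adjusted p of 0.05, bars are list medians, and the dashed line is the median of all tested genes. DNMT3B is the highest of the 10 genes at 0.43 and TET3 the lowest at -0.25, while the S phase and mitosis genes have a median of -0.17.

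A list of 12 germline genes that DNA methylation is known to keep silent in somatic cells had a low summed level of 3.3 to 5.65 CPM. In each group 5 or 6 of the 12 were at or under 3 counts, and 5 genes were tested. Of the 5, 3 were called between the lines in DMSO, beside 42.2% of all genes. SOHLH2 was higher in BRCA1-null control cells, at 1.87 and 1.64 against 0.25 and 0.24 CPM (log2 fold change 2.82 ± 0.346, adjusted p = 0.000232). BRDT was also called higher (adjusted p = 0.0494, 14 and 38 against 9 and 6 counts), though not in entinostat (-0.44), and STK31 was called lower. Without BRCA1+ control replicate 2 or BRCA1-null control replicate 2, 1 gene was called.

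Likeness over the 8 libraries was computed against 10527 genes whose mean log2 CPM was 3 or more. The levels most like that of DNMT3B were those of KIAA0922 and PRKAA2 (Pearson's r = 0.995 for both). For TET3 they were BET1L (0.992) and VPS36 (0.989), and for TET2 TOMM70A (0.98) and RRP36 (0.979). TET1 had the weakest nearest match of the 10, PRTFDC1 at 0.9. These are descriptions over 8 libraries that share 4 groups, and with so many genes compared high values arise readily.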

How the data were processed

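Poly(A) RNA sequencing of 8 libraries was analysed. The values deposited by the authors were raw read counts per gene, made by alignment to hg19 with TopHat (named in the submitters' processing notes) and counting with NGSUtils. The treatment of strand and of reads with several positions was not given in the sources used here. From these counts, CPM and RPKM were computed with effective library sizes and the lengths in the table. Genes were filtered with filterByExpr (17714 kept), normalised with TMM and tested with edgeR 4.0.16 in R 4.3.3. A single quasi-likelihood model held all 8 libraries and the 4 group means, which leaves 4 residual degrees of freedom. P-values are two-sided, with Benjamini-Hochberg adjustment over all genes tested, and a gene was called when the adjusted value was under 0.05. Errors of log2 fold changes are SE, and intervals are at 95%. A count of 0 allows up to 3 counts, or 0.0552 to 0.0946 CPM, for counting error only.

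The 10 genes, the lists and the tests were chosen with earlier results of these data known. Named genes were the 10, BRCA1, EZH1, SUZ12P1, the genes most alike each of the 10 (2 each), and per list and comparison the 2 called genes with the highest and the 2 with the lowest log2 fold change at a mean log2 CPM of at least 3. Further list genes were named after their values were seen. The alternatives comprised upper-quartile factors, DESeq2 size factors, no filter, a stricter filter (1 CPM in 4 libraries), the DESeq2 1.42.0 Wald test, the legacy estimate, a replicate block, fits on only the groups compared, and the omission of each library. Promoters came from RefSeq (GRCh38.p14) and were placed on hg19 by exact match.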

Additional observations from a re-analysis of the deposited data

How the results depend on the processing

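With 2 libraries per group, the lone library left in a group by an omission was assumed to vary like the others, and adjusted p-values near 0.05 moved with single libraries. The lower level of DNMT3B in BRCA1-null cells, its rise with entinostat in BRCA1-null cells and in the average, and the decrease of TET3 in the average kept their direction and their call under every alternative run. Of the 10 genes, 1 to 3 were called between the lines in DMSO without 1 library (3 with all), and 1 without BRCA1+ control replicate 2 or BRCA1-null control replicate 2. In entinostat (2 with all) 1 was called with no filter, with DESeq2's Wald test, with the legacy estimate and with only the 2 groups compared, and 1 to 2 without 1 library, being 1 without any one of the BRCA1+ libraries or BRCA1-null entinostat replicate 1. With entinostat in BRCA1+ cells (2 with all) 0 to 2 were called without 1 library, and 0 without BRCA1+ entinostat replicate 1, BRCA1+ entinostat replicate 2 or BRCA1+ control replicate 2. The cause was not tested.

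The replicate numbers gave 2 pairs, and the labels do not say what a number marks. Deviations of same-numbered libraries from their group means correlated at 0.242 to 0.739 across 10527 genes (0.739 within BRCA1+ and 0.639 within BRCA1-null cells). With the replicate number as a block, 4 of the 10 genes were called between the lines in entinostat (DNMT3B and TET2 lower, DNMT3A and EZH2 higher), EED was called lower in DMSO (adjusted p = 0.00971), and 2 were called with entinostat in BRCA1-null cells (DNMT3B higher, TET3 lower, adjusted p = 0.0417). The block called 4314 of all genes with entinostat in BRCA1+ cells, 3640 in BRCA1-null cells and 1 for the difference between the lines. The shares of all genes called between the lines, 42.2% in DMSO and 39.4% in entinostat, belong to the fit without a block. The number of all genes called between the lines with a block is not given here. The 4 of 10 therefore cannot be read as more or fewer than among all genes.

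Over all genes, DESeq2's Wald test called 11 for that difference, and the fit on only the 2 groups compared called 693 with entinostat in BRCA1-null cells. Without 1 library the genes called ranged from 4527 to 6918 between the lines in entinostat, from 3057 to 4007 with entinostat in the average, from 676 to 2413 in BRCA1+ and from 512 to 1597 in BRCA1-null cells. The first 3 minima were without BRCA1+ entinostat replicate 2, and the last without BRCA1-null entinostat replicate 1. Upper-quartile factors raised the share of higher genes among those called with entinostat in BRCA1+ cells from 57.6% to 72.5%.

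Sign changes occurred for genes that were not called, with values near 0. For the difference of the entinostat effect between the lines, upper-quartile factors gave -0.0148 for DNMT1, -0.0398 for SUZ12 and -0.012 for UHRF1, the stricter filter -0.0117, -0.0365 and -0.00896 in that order, and for SUZ12 DESeq2 size factors gave -0.0069 and its Wald test -0.0079. Without 1 library this difference ran from -0.0383 to 0.0809 for DNMT1, -0.139 to 0.222 for DNMT3A, -0.0685 to 0.0575 for SUZ12, -0.0387 to 0.189 for TET2 and -0.118 to 0.16 for UHRF1. With entinostat in BRCA1+ cells the omissions gave -0.333 to 0.0284 for DNMT3A, -0.148 to 0.0524 for EED (0.0064 with upper-quartile factors), -0.0441 to 0.0774 for EZH2 and -0.0426 to 0.0835 for SUZ12. In BRCA1-null cells they gave -0.00079 to 0.0226 for SUZ12 and -0.195 to 0.0327 for TET2, and in the average -0.0196 to 0.134 for EED and -0.0138 to 0.0492 for SUZ12. Between the lines they gave -0.193 to 0.115 for EED in entinostat and, in DMSO, -0.234 to 0.0205 for TET1 and -0.0307 to 0.24 for UHRF1.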
